A study of Mus musculus with 2 samples.

Results

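The amyloid precursor family and the secretases that cut its members were followed through total RNA sequencing of the left cerebral cortex. The 9 genes were taken by symbol: the precursor genes App, Aplp1 and Aplp2, the alpha-secretase gene Adam10, the beta-secretase gene Bace1, and the gamma-secretase genes Psen2, Ncstn, Aph1a and Psenen. They are 9 of the 55536 annotated genes in the tables and carry 65 annotated transcripts, of which 47 had a share above 0 in both mice. Only 1 group was sampled. It holds 2 male B6CASTF1/J mice, F1 hybrids that carry 1 genome of the C57BL/6 background and 1 of the CAST background, both 36 days old, with 1 library per mouse which took 300 ng of RNA plus ERCC spike-ins. No treatment or engineered allele is named in the labels. The labels number the mice as biological replicates 1 and 2 and describe separate animals, but give both the same donor identifier, so the spread between the libraries may be biological or technical. With 1 group there is no comparison between conditions, and an exact permutation test over 2 mice cannot go below a p of 0.5, so values are given per mouse with no p-value.

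The amyloid precursor protein and its relatives APLP1 and APLP2 are membrane proteins with a large outer part and a short tail inside the cell. Alpha-secretase cuts App's product within the amyloid-beta stretch and releases a soluble fragment, whereas beta-secretase cuts at the start of that stretch. Gamma-secretase, a complex of a presenilin, nicastrin, APH1 and PEN2, then cuts the remaining stub within the membrane, and after beta-cleavage this gives amyloid-beta. In the brain, neurons are known for making mostly the precursor form without the Kunitz protease inhibitor domain, while many other cells splice that domain in.

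The sequences on which the transcript results turn come from the GENCODE M21 reference transcripts and mm10 coordinates, are written 5′ to 3′ on the strand of the gene, and are reference sequence rather than sequence read from these hybrid mice. The amyloid-beta coding stretch is shown because the product of both secretases is encoded there. It spans 42 codons of App-201, begins 99 codons before the stop codon, and lies in the pair of exon parts chr16:84965670-84965720 and chr16:84962794-84962868 on the minus strand. Capitals mark codons 41 and 42, which only the longer peptide includes.
App amyloid-beta stretch: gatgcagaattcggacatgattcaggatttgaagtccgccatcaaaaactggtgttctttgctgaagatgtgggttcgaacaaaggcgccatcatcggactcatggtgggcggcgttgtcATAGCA

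The Kunitz inhibitor exons of App and Aplp2 are shown because their inclusion set the 2 genes apart. Each is 168 nucleotides long and encodes 56 codons, on the minus strand at chr16:85043576-85043743 in App and at chr9:31167561-31167728 in Aplp2. Capitals mark the 114 of 168 bases (67.9%) that are the same in both exons when they are aligned without gaps.
App Kunitz exon: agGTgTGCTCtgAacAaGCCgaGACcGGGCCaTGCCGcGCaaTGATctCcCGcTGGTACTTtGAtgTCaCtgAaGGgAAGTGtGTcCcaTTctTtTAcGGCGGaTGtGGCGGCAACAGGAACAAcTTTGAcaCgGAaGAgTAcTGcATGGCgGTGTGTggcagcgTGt
Aplp2 Kunitz exon: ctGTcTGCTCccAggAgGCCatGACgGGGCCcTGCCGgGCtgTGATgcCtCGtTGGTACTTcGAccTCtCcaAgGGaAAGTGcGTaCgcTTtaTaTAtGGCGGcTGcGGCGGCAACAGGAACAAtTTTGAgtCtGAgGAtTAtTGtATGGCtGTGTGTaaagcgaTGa

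The remaining alternative exons are shown because transcripts of App, Aplp2 and Bace1 differ by them. They are the 57-nucleotide OX2-like exon of App at chr16:85040251-85040307, the 54-nucleotide exon 15 of App at chr16:84971408-84971461, the 36-nucleotide 12-codon exon of Aplp2 at chr9:31156190-31156225, all on the minus strand, and the 102-nucleotide exon 6 of Bace1 at chr9:45858400-45858501 on the plus strand. The last sequence is the first 26 nucleotides of exon 12 of Adam10, at chr9:70766872-70766897 on the plus strand, which Adam10-202 lacks. No base is marked in these sequences.
App OX2-like exon: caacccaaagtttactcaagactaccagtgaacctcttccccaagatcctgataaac
App exon 15: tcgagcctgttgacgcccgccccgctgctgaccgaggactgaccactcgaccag
Aplp2 12-codon exon: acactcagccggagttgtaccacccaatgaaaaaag
Bace1 exon 6: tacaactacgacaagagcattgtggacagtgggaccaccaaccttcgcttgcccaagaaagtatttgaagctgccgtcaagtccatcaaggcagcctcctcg
Adam10 exon 12 start: tccgagtcaaggaccctgctgtacag

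Libraries held 29915463 and 27988085 expected counts in replicates 1 and 2, of which spike-ins took 0.407% and 0.322%. TPM is the length-corrected share of a gene or transcript among all RNA in the table, scaled to a fixed sum per library, and nuclear protein-coding genes took 45.0% and 45.5% of it in the alignment-based table. The labelled tissue held its defining markers, with all 5 neuron markers, all 4 astrocyte markers and all 4 oligodendrocyte markers reaching a TPM of 1 in each mouse and medians of 522, 210.5 and 234 TPM. Microglia (4 of 4, median 15.6 TPM) and endothelial markers (3 of 3, 18.0 TPM) were low, choroid plexus markers passed in 2 of 3 (1.36 TPM), and erythroid markers passed in 3 of 3 (187 TPM). The summed level of the 4 oligodendrocyte markers was 1130 TPM in replicate 1 and 927 TPM in replicate 2, with a median log2 count ratio of 0.38.

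All 9 genes were expressed, a term used here for a TPM of 1 or more in each mouse, beside 58.6% of the 22028 protein-coding genes. Together they summed to 1561 and 1587 TPM, or 0.347% and 0.348% of the TPM of nuclear protein-coding genes. The precursor genes App, Aplp1 and Aplp2 made up 89.3% and 89.2% of that sum. The median level of the 9 genes was 35.8 TPM, against 15.9 TPM for all expressed protein-coding genes. In bulk tissue, fewer cells of a type and less RNA per cell cannot be told apart, so each level is an average over the cell types of the cortex.

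App, the precursor of amyloid-beta (ENSMUSG00000022892.11, chr16:84949685-85173766, minus strand), had 609.5 TPM in replicate 1 and 617 TPM in replicate 2, with a mean of 613 ± 5.25 TPM (SD, n = 2). It ranked 38 and 37 among the 22015 nuclear protein-coding genes. Aplp1, its neuronal relative without an amyloid-beta stretch (ENSMUSG00000006651.8, chr7:30434982-30445535, minus strand), had 538 and 547 TPM, a mean of 542 ± 5.92 TPM (SD, n = 2), and ranked 48 and 45. Aplp2, the more widely expressed relative (ENSMUSG00000031996.17, chr9:31149557-31211815, minus strand), had 246 and 251 TPM, a mean of 249 ± 3.48 TPM (SD, n = 2), and ranked 218 and 202. The 3 genes kept the same order in both mice and their values did not overlap. Within libraries, the log2(TPM + 1) level of App exceeded that of Aplp1 by 0.18 ± 0.003 (1.13-fold) and that of Aplp2 by 1.30 ± 0.008 (2.46-fold), and Aplp1 exceeded Aplp2 by 1.12 ± 0.004 (2.18-fold; SD, n = 2 each). In the read-based table the same differences were 0.26, 1.02 and 0.77.

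Adam10, which encodes the main alpha-secretase of neurons (ENSMUSG00000054693.14, chr9:70678997-70780229, plus strand), had 31.1 and 30.2 TPM in replicates 1 and 2, a mean of 30.6 ± 0.601 TPM (SD, n = 2). Bace1, which encodes the main beta-secretase of neurons (ENSMUSG00000032086.12, chr9:45838580-45864399, plus strand), had 35.9 and 39.0 TPM, a mean of 37.4 ± 2.23 TPM (SD, n = 2). Adam10 was lower than Bace1 in both mice, with a difference of -0.28 ± 0.111 on the log2(TPM + 1) scale (SD, n = 2) and of -0.11 on average in the read-based table. App exceeded Bace1 by 4.00 ± 0.072 (16.0-fold) and Adam10 by 4.28 ± 0.04 (19.4-fold) on the same scale (SD, n = 2 each).

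The gamma-secretase genes sat at 3 levels close to one another and 1 lower level. Ncstn, which encodes nicastrin, a subunit with a large outer part that takes part in substrate access (ENSMUSG00000003458.12, chr1:172066013-172082795, minus strand), had 28.8 and 31.6 TPM, a mean of 30.2 ± 1.99 TPM (SD, n = 2). Aph1a, which encodes a scaffold subunit (ENSMUSG00000015750.15, chr3:95893969-95898288, plus strand), had 27.7 and 27.3 TPM, a mean of 27.5 ± 0.269 TPM (SD, n = 2). Psenen, whose product PEN2 joins the complex last and is needed for presenilin to be cut into its active form (ENSMUSG00000036835.7, chr7:30561863-30563627, minus strand), had 36.4 and 35.2 TPM, a mean of 35.8 ± 0.813 TPM (SD, n = 2). Psen2, which encodes a presenilin, the catalytic subunit (ENSMUSG00000010609.15, chr1:180227004-180263438, minus strand), had 6.78 and 8.54 TPM, a mean of 7.66 ± 1.25 TPM (SD, n = 2). Psen2 was the lowest of the 9 genes in both mice. Psenen exceeded it by 2.10 ± 0.24, Ncstn by 1.86 ± 0.116 and Aph1a by 1.73 ± 0.222 on the log2(TPM + 1) scale (SD, n = 2 each). Ncstn differed from Aph1a by 0.13 ± 0.106 and from Psenen by -0.24 ± 0.124 on that scale (SD, n = 2 each), and in the read-based table the Psenen difference (-0.31) was no larger than its SD of 0.32.

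From high to low the order was App, Aplp1, Aplp2, Bace1, Psenen, Adam10, Ncstn, Aph1a and Psen2. Of the 8 neighbouring pairs in that order, 6 did not overlap between the mice. The order was set by the means of these same values, so the count only describes them. No matching count over all genes was made. Bace1 and Psenen overlapped, as did Adam10 and Ncstn, so these neighbours did not differ beyond their spread. In the read-based quantification, 7 of the 8 pairs kept their order and Psenen came above Bace1. Read-based TPM was higher for all 9 genes, from 910.4 TPM for App to 10.3 TPM for Psen2 on average, and the median of the alignment-based over the read-based level was 0.634-fold for the 9 genes beside 0.647-fold for all expressed protein-coding genes.

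**Figure D1:**
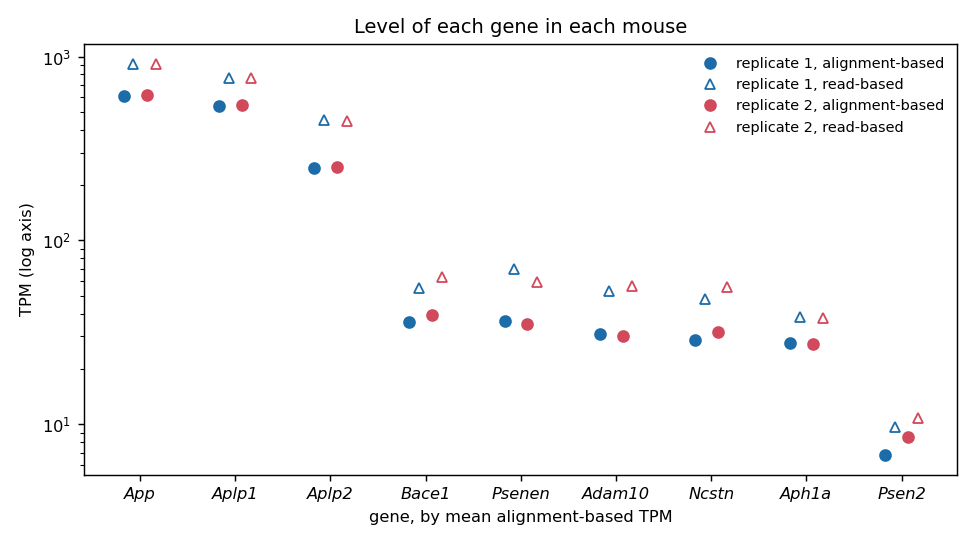
TPM of each gene on a log axis, with replicate 1 in blue and replicate 2 in red, filled circles for the alignment-based and open triangles for the read-based table. The 3 precursor genes lie at 246 TPM or above, 5 secretase genes between 27.3 and 39.0 TPM and Psen2 at 6.78 and 8.54 TPM in the alignment-based table.

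The 2 mice differed little in these genes. None of the 9 genes (0 of 9) had a log2 ratio of replicate 1 over replicate 2 above 1 in size in TMM-scaled expected counts, beside 0.247% of the 11728 protein-coding genes whose mean count reached 100 (29 genes). None passed 0.5 in size either, beside 2.26% of those genes (265 genes). The median size of the ratio was 0.09 for the 9 genes and 0.10 for all tested genes.

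App had 37674 and 35449 expected counts in replicates 1 and 2 and a log2 ratio of 0.05 (95% exact binomial interval of the counts 0.03 to 0.07). Psenen, with 425 and 360.5 expected counts, had the ratio farthest from 0, at 0.20 (-0.001 to 0.41), and Psen2, with 219 and 236, had the lowest, at -0.14 (-0.41 to 0.13). These intervals cover counting error only. The intervals of App, Aplp1, Aplp2, Adam10 and Aph1a did not include 0, and those of Bace1, Ncstn, Psenen and Psen2 did. Of the 9 ratios 7 were above 0 with TMM scaling, but 8 were with DESeq2 size factors, 4 with library totals and 0 with spike-in totals. The DESeq2 size factors came out equal for the mice, so those ratios are of unscaled counts, and the reason was not tested. The median of all tested genes moved with these settings, from 0.03 with TMM to -0.37 with spike-in totals, and the median of the 9 genes lay 0.03 above it under each scaling of the alignment-based counts, since a scaling shifts every gene alike. The oligodendrocyte markers, at a median ratio of 0.38, lay farther from 0 than any of the 9 genes, and their part in these ratios was not tested.

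**Figure D2:**
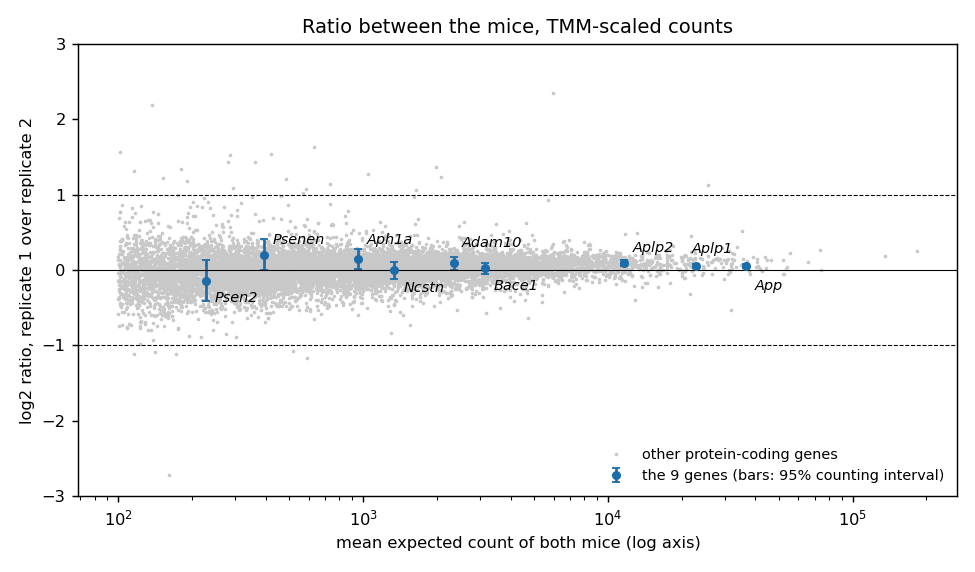
Log2 ratio of replicate 1 over replicate 2 in TMM-scaled expected counts against the mean expected count on a log axis, for the 9 genes (blue, bars are 95% counting intervals) and all other protein-coding genes whose mean count reached 100 (grey). The 9 genes lie between -0.14 and 0.20, inside the dashed lines at -1 and 1, and 1 other gene lies outside the plotted range.

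App was expressed mostly as its 695-codon form, the one known as the neuronal form. App-201, of 695 codons and without the Kunitz and OX2-like exons, took 92.1% and 91.0% of the gene's TPM in replicates 1 and 2, and 91.3% and 90.05% in the read-based table. App-202, of 751 codons with the Kunitz exon, took 3.26% and 4.14%. App-206, of 770 codons with both exons, took 1.77% and 1.61%, and App-203, of 752 codons, took 1.33% and 1.08%. The amyloid-beta stretch printed above is held by 5 protein-coding transcripts, which took 98.4% and 97.8% of App TPM.

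Counted over transcripts that could hold or skip it, the App Kunitz exon was included in 6.61% and 7.28% of TPM in replicates 1 and 2, a mean of 6.94% ± 0.469 (SD, n = 2). In Aplp2 the matching exon was included in 60.8% and 59.7%, a mean of 60.2% ± 0.755 (SD, n = 2). Both mice showed the same contrast, which was far larger than the spread, and the read-based table gave 7.69% and 8.81% for App and 64.9% and 64.3% for Aplp2. The exon encodes an inhibitor of serine proteases. The OX2-like exon of App, which follows it and resembles part of the OX-2 antigen, was included in 3.31% and 3.06%. Exon 15 of App, whose skipping creates the attachment site for chondroitin sulfate, was included in 98.65% and 98.8%.

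Aplp1 had the largest share on 1 transcript among the 9 genes. Aplp1-201, of 654 codons, took 97.9% and 96.4% of its TPM, and its runner-up, the retained-intron transcript Aplp1-202, took 0.73% and 1.05% in replicates 1 and 2. Aplp2 was divided among several transcripts. Aplp2-202, of 707 codons without the Kunitz exon, took 28.4% and 28.0%, Aplp2-203, which has the exon but an incomplete 3′ end in the annotation, took 23.6% and 23.55%, and Aplp2-201, of 751 codons with the exon, took 20.4% and 17.9%. In the read-based table Aplp2-203 came first at 30.02% and 29.4%, with Aplp2-202 at 20.96% and 21.6%.

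The 12-codon exon of Aplp2, whose insertion interrupts an attachment site for chondroitin sulfate, was included in 71.85% and 74.2% of TPM in replicates 1 and 2, and in 85.4% and 84.2% in the read-based table. Retained-intron transcripts took 27.6% and 30.5% of Aplp2 TPM, and 40.3% and 39.5% in the read-based table. Aplp2-207, with the largest share of them, took 17.9% and 17.3%. Aplp2-208 took 3.70% and 5.06%, but 11.9% and 9.98% in the read-based table, and Aplp2-205 took 1.27% and 2.50%, but 3.31% and 5.93% there.

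**Figure D3:**
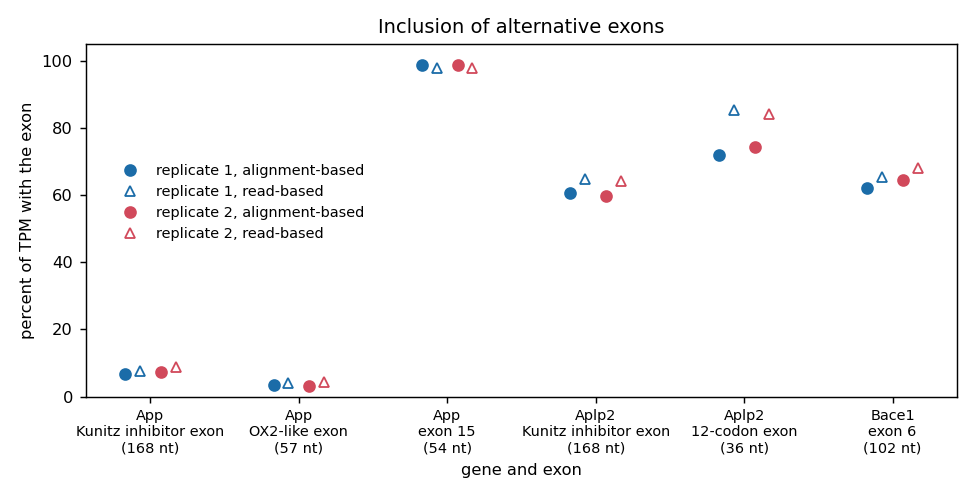
Percent of TPM on transcripts that include each alternative exon, among transcripts that include or skip it, for replicate 1 (blue) and replicate 2 (red) in the alignment-based (filled circles) and read-based (open triangles) tables. The Kunitz exon lies at 6.61% and 7.28% in App and at 60.8% and 59.7% in Aplp2 in the alignment-based table.

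Bace1 was divided mainly between 2 coding forms. Bace1-201, of 501 codons, took 44.6% and 39.6% of Bace1 TPM in replicates 1 and 2, and Bace1-202, of 467 codons, took 37.97% and 35.5%. The forms differ by exon 6, printed above, which encodes 34 codons of the protease. Its inclusion was 62.04% and 64.5%, a mean of 63.3% ± 1.76 (SD, n = 2), and 65.3% and 68.0% in the read-based table. The including side also holds the retained-intron Bace1-204 and the incomplete Bace1-206, so inclusion is not the balance of the 2 coding forms. The order of the 2 forms was not settled by these tables, since the read-based table put Bace1-201 at 35.6% and 28.9% and Bace1-202 at 34.7% and 32.0%. The retained-intron transcript Bace1-204 took 9.45% and 13.4%, and 24.7% and 19.6% in the read-based table. Bace1-206, with an incomplete coding sequence, took 7.95% and 11.6%, and 5.07% and 19.6% there.

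Adam10 was led by Adam10-201, of 749 codons, with 76.2% and 79.8% of its TPM in replicates 1 and 2. Its runner-up, Adam10-202, is annotated as a target of nonsense-mediated decay, which removes RNA with an early stop codon, and took 22.5% and 17.6%. Exon 12 of that transcript lacks the 26 nucleotides printed above, and its open frame ends after 513 codons. The read-based table gave Adam10-201 58.8% and 56.0%, Adam10-202 31.01% and 24.1%, and Adam10-203, an incomplete transcript listed at 0 in the alignment-based table, 9.29% and 18.8%. Of the other 8 genes only Bace1 and Ncstn have a transcript annotated as such a decay target, so the rest could not show any. Those of Ncstn took 0.65% and 0.53% in replicates 1 and 2, and 4.55% and 4.66% in the read-based table. That of Bace1 was listed at 0 in both tables.

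Among the gamma-secretase genes, Ncstn-201, of 708 codons, took 79.4% and 74.5% of Ncstn TPM in replicates 1 and 2, and retained-intron transcripts took 19.9% and 24.99%. Of these, Ncstn-203 took 10.9% and 11.98%, Ncstn-202 took 4.83% and 7.80%, and Ncstn-205 took 4.23% and 5.21%. In the read-based table retained-intron transcripts reached 30.5% and 36.0%, with Ncstn-205 at 13.99% and 16.5%. Both tables thus put Ncstn-201 first in both mice.

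Aph1a had a pair of complete coding forms. Aph1a-202, of 265 codons, took 61.2% and 63.02%, and Aph1a-201, of 247 codons, took 25.2% and 22.15% in replicates 1 and 2. The retained-intron transcript Aph1a-204 took 9.35% and 8.11%, and the incomplete Aph1a-203 took 4.29% and 6.72%. Psenen-201 and Psenen-203 share 1 coding sequence of 101 codons and together took 95.5% and 87.02%. Apart, they took 84.2% and 74.1% (Psenen-201) and 11.3% and 12.9% (Psenen-203), while the read-based table gave 56.3% and 55.6% against 42.2% and 41.2%. The incomplete Psenen-204 was listed at 0 in replicate 1 and took 6.29% in replicate 2.

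In the alignment-based table Psen2 was the only one of the 9 genes whose leading transcript differed between the mice, while in the read-based table the leader of Bace1 differed as well. Psen2-201 took 55.1% in replicate 1 and was listed at 0 in replicate 2, whereas Psen2-205 was listed at 0 in replicate 1 and took 53.2% in replicate 2. The read-based table gave Psen2-201 61.45% in replicate 1 and Psen2-204 66.7% in replicate 2. Psen2-201, Psen2-203, Psen2-204 and Psen2-205 share 1 coding sequence of 448 codons, and their summed share was 55.1% and 53.2%, a mean of 54.2% ± 1.33 (SD, n = 2), and 61.45% and 66.7% in the read-based table. The deposited interval of Psen2-201 in replicate 1 ended at 2.47 TPM, below its own TPM of 3.74. This was not particular to Psen2, since in replicate 1 App-201 (561 TPM) and Aplp1-201 (527 TPM) also lay above intervals ending at 549 and 515.5 TPM. The intervals belong to another deposited estimate, and their level is not given in the sources used here. At 219 and 236 counts the split among the 4 transcripts is uncertain, while the coding sequence as a whole was close in the mice.

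All protein-coding transcripts of Psen2 together took 59.6% and 55.8% in replicates 1 and 2, but the noncoding rest was divided unevenly. Retained-intron transcripts took 18.0% and 31.3%, and other noncoding transcripts 22.4% and 12.9%. In the read-based table these were closer, at 22.8% and 20.15% and at 10.7% and 10.4%. Of the retained-intron transcripts, Psen2-211 took 12.98% and 8.15%, and Psen2-212 took 4.99% and 8.23%. Psen2-206, also a retained-intron transcript, was listed at 0 in replicate 1 and took 14.9% in replicate 2. Of the other noncoding transcripts, Psen2-208 took 17.4% and 12.9%. Psen2-210 took 5.02% in replicate 1 and was listed at 0 in replicate 2. The coding transcript Psen2-202, of 447 codons, took 4.50% and 2.61%. No shift between the mice can be read from these transcripts at this depth.

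Over the 9 genes, 6 had the same leading transcript in both tables, beside 76.1% of the 11675 expressed protein-coding genes with at least 2 transcripts. The exceptions were Aplp2, Bace1 and Psen2. Of the 9, 8 had the same leading transcript in both mice in the alignment-based table, beside 87.7%. The leading transcript took a median of 76.96% of TPM in the 9 genes and 62.3% in all of them. In the alignment-based table Aplp2, Psen2, Ncstn and Adam10, 4 of the 9, had at least 20% of their TPM on transcripts not typed as protein-coding, beside 39.9%. The median of that share was 11.4% in the 9 genes and 13.85% in all of them. In the read-based table Bace1 passed 20% as well, with 77.9% of its TPM on protein-coding transcripts on average.

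**Figure D4:**
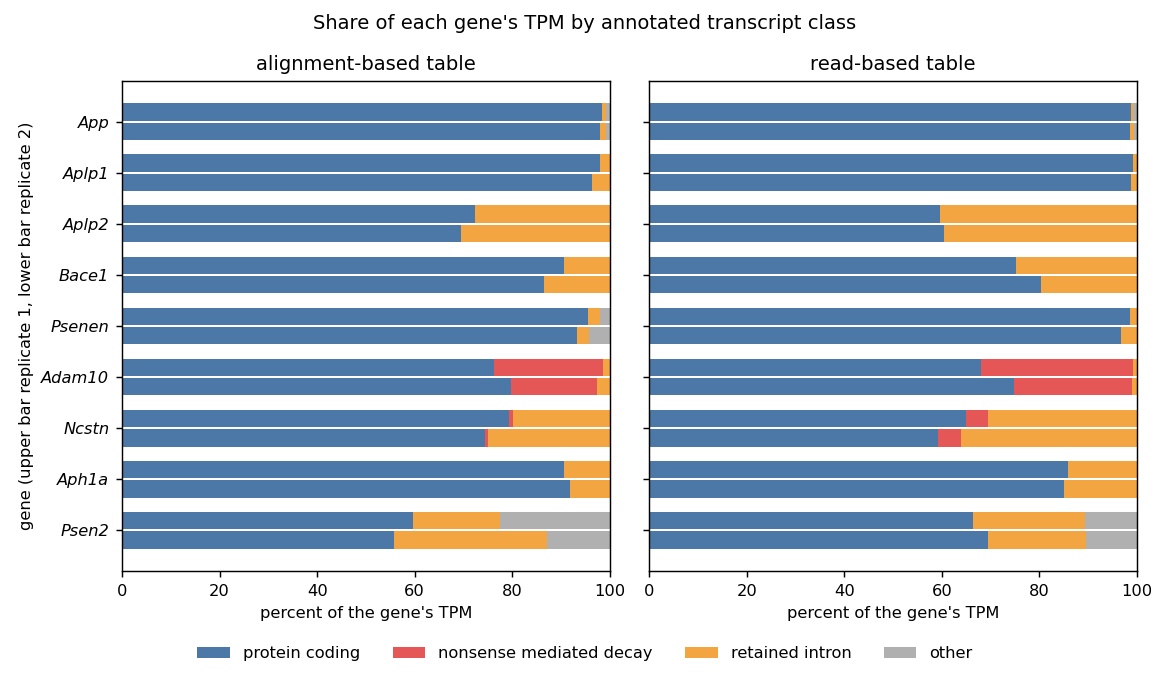
Percent of each gene's TPM on protein-coding, nonsense-mediated decay, retained-intron and other transcripts, with replicate 1 as the upper and replicate 2 as the lower bar, in the alignment-based (left) and read-based (right) tables. Decay transcripts, annotated only in Adam10, Bace1 and Ncstn, appear mainly in Adam10 (22.5% and 17.6%, alignment-based). In the alignment-based table retained introns appear most in Aplp2 (27.6% and 30.5%), Psen2 (18.0% and 31.3%) and Ncstn (19.9% and 24.99%).

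Counting bears on some of these levels. Expected counts were whole (within 0.005) in both mice for 7 of the 9 genes, beside 84.9% of expressed protein-coding genes, and those of Aph1a and Psenen were not, so some of their reads were shared with other genes. Of the 9 genes 6 are overlapped by 13 annotated genes, all on the opposite strand. Bace1 is overlapped by the antisense gene Gm16536, with 259 and 264 expected counts or 8.34% of the Bace1 count, by Gm49338, with 372 and 373, and by Rnf214, with 1800 and 1790. Ncstn shares 267 nucleotides of its span with Copa, with 5324 and 4863 counts, and Aph1a shares 521 with Car14, with 112 and 98. Psenen is overlapped by U2af1l4, with 371.9 counts in each mouse, and by Gm49396, with 167 and 217. App is overlapped by Gm10791, Gm49228, Gm49227, Gm49226 and Gm27295, and Psen2 by Gm31728, and these genes held at most 2 counts in either mouse. Whether strand was used in counting is not given in the sources used here, so the levels of Bace1, Ncstn, Aph1a, Psenen and these antisense partners are uncertain to that extent.

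RefSeq promoter windows of 300 bases (250 before and 50 after the start, GRCm38.p6) were found for 8 of the 9 genes, in 10 windows, and none was matched for Bace1. The App window, on the minus strand at chr16:85173658-85173957 and with 71.0% GC, is shown as an example, with capitals on the single match to GGGCGG.
App promoter: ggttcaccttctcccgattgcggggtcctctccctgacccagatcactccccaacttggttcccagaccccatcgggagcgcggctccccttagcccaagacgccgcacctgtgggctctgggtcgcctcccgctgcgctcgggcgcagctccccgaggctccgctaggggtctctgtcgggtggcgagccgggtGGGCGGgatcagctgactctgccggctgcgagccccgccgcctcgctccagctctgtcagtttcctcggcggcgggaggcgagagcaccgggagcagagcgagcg

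The letters GGGCGG, searched on both strands, were found in 6 of the 10 windows and in 35.7% of all 32851 windows, and TATAAA, searched in the same way, in 0 of 10 and in 13.6%. Median GC content was 64.5% in the 10 windows and 52.7% in all windows, and the median number of CpG pairs was 24 and 7. The Adam10 window was the richest at 73.3% GC and the second Psen2 window the poorest at 47.7%. These are descriptions of the letters and say nothing of a factor's binding.

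Genes that work beside the 9 were nearly all present. Of 62 genes in 6 pathway lists, 61 (98.4%) were expressed, beside 58.6% of all protein-coding genes. Their median level was 35.55 TPM, close to the 35.8 TPM of the 9 genes, against 15.9 TPM for all expressed protein-coding genes. Of the 60 with a mean count of at least 100, 0 had a ratio between the mice above 1 in size and 1 passed 0.5. Among all genes with that mean count, 0.247% passed 1 and 2.26% passed 0.5, so the pathway genes did not stand out in this. The pathway gene past 0.5 was Gsap, which encodes a gamma-secretase activating protein. It had 103 and 153 expected counts in replicates 1 and 2 and a log2 ratio of -0.60.

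Other secretases and subunits were low (5 of 5 expressed, median 7.62 TPM). Adam9, a protease with alpha-secretase activity, was the highest at 23.9 and 21.9 TPM and also had the ratio farthest from 0 (0.21). Bace2, the relative of Bace1, had the lowest mean, from 3.58 and 1.58 TPM, although its counts were 102 and 90 in replicates 1 and 2. Aph1c was close to it, at 2.73 and 2.53 TPM, and was the lower of them in replicate 1. Aph1b and Aph1c, near-identical relatives of each other, had expected counts that were not whole, so their levels are uncertain. The mean of Bace2 was 2.58 ± 1.41 TPM (SD, n = 2), beside 37.4 ± 2.23 TPM for Bace1.

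Adaptors that bind the tail of the precursor were all expressed (8 of 8, median 44.8 TPM). Apbb1, which encodes the adaptor Fe65, was the highest at 198 and 193 TPM, Apba3 the lowest at 14.3 and 17.4 TPM, and Apba1 had the ratio farthest from 0 (0.12). Sorting genes were the next group (12 of 12, median 76.9 TPM). Rtn3, a reticulon that binds BACE1, was the highest at 384 and 359 TPM, Gga2, a Golgi adaptor, the lowest at 14.9 and 15.4 TPM, and Sorl1, a sorting receptor of the precursor, had the ratio farthest from 0 (0.27).

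Of the secretase modulators 12 of 13 were expressed (median 25.03 TPM). Tspan5, a tetraspanin that helps bring ADAM10 to the cell surface, was the highest at 122 and 109 TPM, and Tspan10 the lowest at 0.03 TPM in replicate 1 and listed at 0 in replicate 2, from 1 and 0 counts. Amyloid-degrading enzymes and carriers (8 of 8) had the highest median, 178 TPM. Apoe, a lipid carrier made chiefly by astrocytes, was the highest at 789 and 833 TPM, above App. Mme, which encodes the amyloid-degrading enzyme neprilysin, was the lowest at 5.48 and 4.81 TPM, and Ece2, an endothelin-converting enzyme, had the ratio farthest from 0 (-0.48). Other substrates of the secretases were all expressed (16 of 16, median 70.1 TPM). Prnp, the prion protein gene, was the highest at 335 and 322 TPM, Notch2 the lowest at 5.80 and 6.20 TPM, and Notch1, a gamma-secretase substrate in cell signalling, had the ratio farthest from 0 (-0.26).

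**Figure D5:**
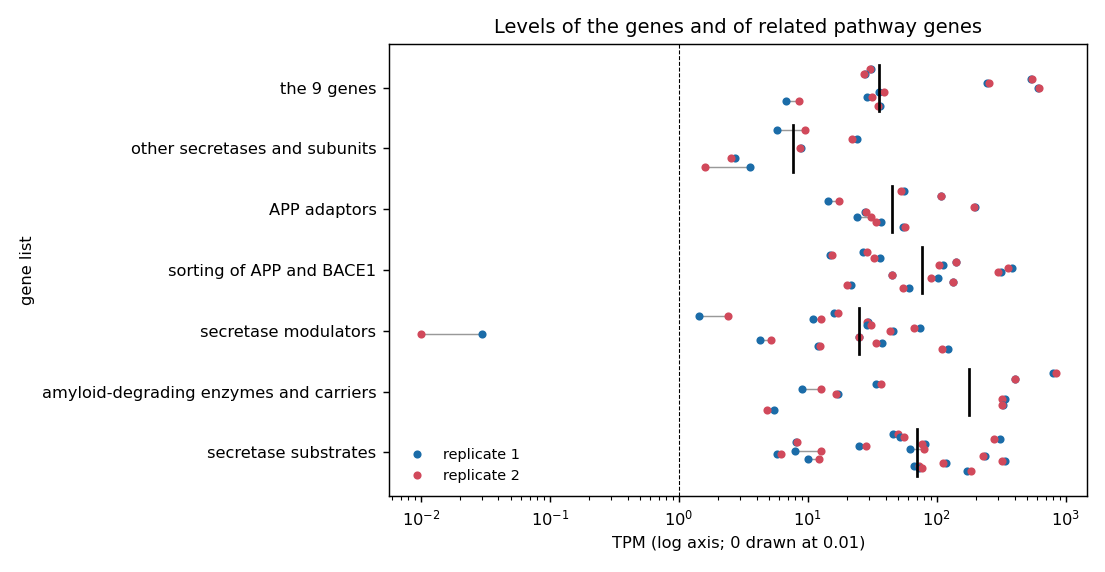
TPM on a log axis of the 9 genes and of the 62 genes in 6 pathway lists, with 1 row of points per gene, replicate 1 in blue and replicate 2 in red, joined by a grey line, a black bar at the median of each list, and the dashed line at a TPM of 1. The list medians range from 7.62 TPM (other secretases and subunits) to 178 TPM (degrading enzymes and carriers), and Tspan10 is the gene left of the dashed line.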

How the data were processed

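Per the file headers and a deposited listing, the authors quantified each library in an alignment-based gene and transcript table and again in a transcript table made directly from the reads, with mm10 and GENCODE M21. The deposited units are expected counts (estimated reads, not normalized, split among genes that share reads), TPM (scaled over every row), and each transcript's percent of its gene's TPM; the read-based table holds estimated counts and TPM. The aligner, the quantification tools and the strand setting were not given in the sources used here. Totals were 29915463 and 27988085 expected counts, and 30313190 and 28751536 in the read-based table.

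Members were taken by symbol, and read-based values were summed per gene. Levels are deposited TPM, compared between genes as log2(TPM + 1). Expected counts were rounded for edgeR 4.0.16 in R 4.3.3 (TMM over genes passing filterByExpr, intercept-only design). Log2 ratios used a prior count of 0.5, and exact binomial 95% intervals came from scipy 1.17.1. DESeq2 1.42.0 size factors, library totals and spike-in totals were alternatives. The DESeq2 size factors were equal in the mice, so that alternative left the counts unscaled. Inclusion of an exon is the percent of TPM on transcripts that include it, among those that include or skip it. The scaling and share steps were tested on simulated data.

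Named were all 9 genes, every transcript over 5% of its gene in either table with the runner-up, every overlapping gene, and of each pathway list the most abundant gene, the least abundant and the one with the ratio farthest from 0. Members, lists and markers were chosen with earlier results of these data known. Both libraries form 1 group, so no test between conditions was run.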

Additional observations from a re-analysis of the deposited data

How the results depend on the processing

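Counts of expressed and differing genes changed little among the 9 genes. All 9 genes stayed expressed at a TPM of 0.1 and in the read-based table, and 8 did at a TPM of 10, where Psen2 dropped out. Of the pathway genes 61 passed at 0.1, but only 49 at 10, and no matching count over all genes was made at these thresholds. None of the 9 passed a log2 ratio of 1 in size under any scaling or count minimum, and with spike-in totals Psen2 reached -0.54. The biological coefficient of variation over all genes was 8.96% among 17529 genes, and 9.45% among 27980 with no filter on low counts. Of 189 alternative values 131 moved by less than the spread between the mice or stayed on the same side of their threshold. These 131 include all 72 values without 1 mouse, so the count overstates stability. Another 47 moved further with the same sign, 32 of these in the read-based table. The other 11 changed sign, all of them log2 ratios between the mice. With spike-in totals these were App (-0.346), Aplp1 (-0.343), Aplp2 (-0.308), Bace1 (-0.377), Adam10 (-0.311), Aph1a (-0.249) and Psenen (-0.195). With library totals they were App (-0.007), Aplp1 (-0.004) and Bace1 (-0.039). With DESeq2 size factors, which were equal in the mice and so left counts unscaled, the sign changed for Ncstn (0.03). The cause was not tested. Leaving out 1 of 2 mice moves a mean by less than 1 SD whatever the values, so the 72 values without 1 mouse, nearly all of them means, say nothing about stability. The leading transcript was shared by both tables in 8 of 9 genes in replicate 1 alone and in 6 in replicate 2 alone. Exon inclusion and its alternatives were added after seeing the data. No paired analysis was possible because there is only 1 group. Depth limits Psen2 most, at 219 and 236 counts.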
